A study of Arabidopsis thaliana with 6 samples.

Results

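The genes described here make, destroy and transmit the plant hormone cytokinin. The members were picked by gene family and locus identifier. The set holds 46 of the 33554 loci listed in each library: 3 receptors, 6 AHP phosphotransfer genes, 7 type-B and 10 type-A response regulators (ARR), 7 LOG, 6 IPT and 7 CKX genes. RNA was sequenced from root cells of 6-day-old Arabidopsis thaliana seedlings sorted by fluorescence, in 6 libraries of 5 cell types. Stele, the central vascular cylinder, was sorted with a green fluorescent protein (GFP) driven by the WOL promoter (ProWOL:GFP), and endodermis with ProSCR:GFP line1 and line2. Cortex was sorted with ProAT1G09750:GFP, epidermis with ProWER:GFP and columella root cap with the PET111 enhancer trap line. Endodermis thus had 2 libraries and the 4 other cell types 1 each, with no treatment or mutant named in any label. A promoter or enhancer trap marks the cells that use it, which need not be a single cell type.

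Cytokinins are adenine derivatives that control cell division and vascular patterning in the root. IPT enzymes add the side chain, and LOG enzymes release the active base from its nucleotide. CKX oxidases break the hormone down. The histidine kinase receptors AHK2, AHK3 and WOL (also named CRE1 or AHK4) bind it and pass phosphate to AHP proteins. These carry it to the nucleus, where type-B ARR proteins act as transcription factors and type-A ARR proteins, themselves induced by cytokinin, damp the response.

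Values are FPKM, fragment counts scaled to transcript length and library size, so levels can be compared between genes. The summed FPKM of a library lay between 576322 and 642028, and read totals were not given in the sources used here, which leaves the counting error of a value unknown. From steps between low values, the value of a single read was between 0.99 and 1.58 times that in endodermis line 1, with cortex the shallowest library. Of 8 endodermis markers, 7 were highest in line 1 and the other in line 2, with a summed level of 6695 FPKM in line 1 and 576 FPKM in line 2 against at most 61.3 FPKM elsewhere. The endodermis lines stood apart: they differed at least 2-fold at 43.0% of genes compared, while line 2 differed so from cortex at 11.6% and from stele at 17.0%. Each result on endodermis below is therefore given line by line. Of 4 stele markers 3 were highest in stele, of 5 epidermis markers 4 in epidermis and of 5 root cap markers 4 in columella root cap, while 1 of 2 cortex markers was highest in cortex. That cortex marker, AED3 (AT1G09750), is the gene whose promoter drove the cortex sort, so its place is no finding. The other, CO2, was at 2.39 FPKM in cortex against 6.97 FPKM in endodermis line 2. WER and SCR, whose promoters were also used for sorting, are among the epidermis and endodermis markers. The columella root cap library also had the highest level of 6 of 7 xylem markers (summed level of 815 FPKM, against 265 FPKM in stele), and the root cap markers summed to 125 FPKM in epidermis. None of these markers was at 0 in any library.

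The minimum for a measured gene was 1 FPKM in any library, met by 40 of the 46 cytokinin genes and by 19671 loci in all. The 6 others were ARR16, LOG2, LOG5, IPT3, CKX1 and CKX2, whose highest values lay between 0.00921 FPKM (CKX2) and 0.666 FPKM (ARR16). Enriched means here that log2(FPKM + 1) in a cell type, in both lines for endodermis, stood 1 or more above all libraries from elsewhere, with 5 FPKM on the higher side. Depleted means that it stood as far below all of them. This is a rule of size without a p-value. All differences between cell types other than endodermis rest on 1 library a side and have no replicate check.

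**Figure D1:**
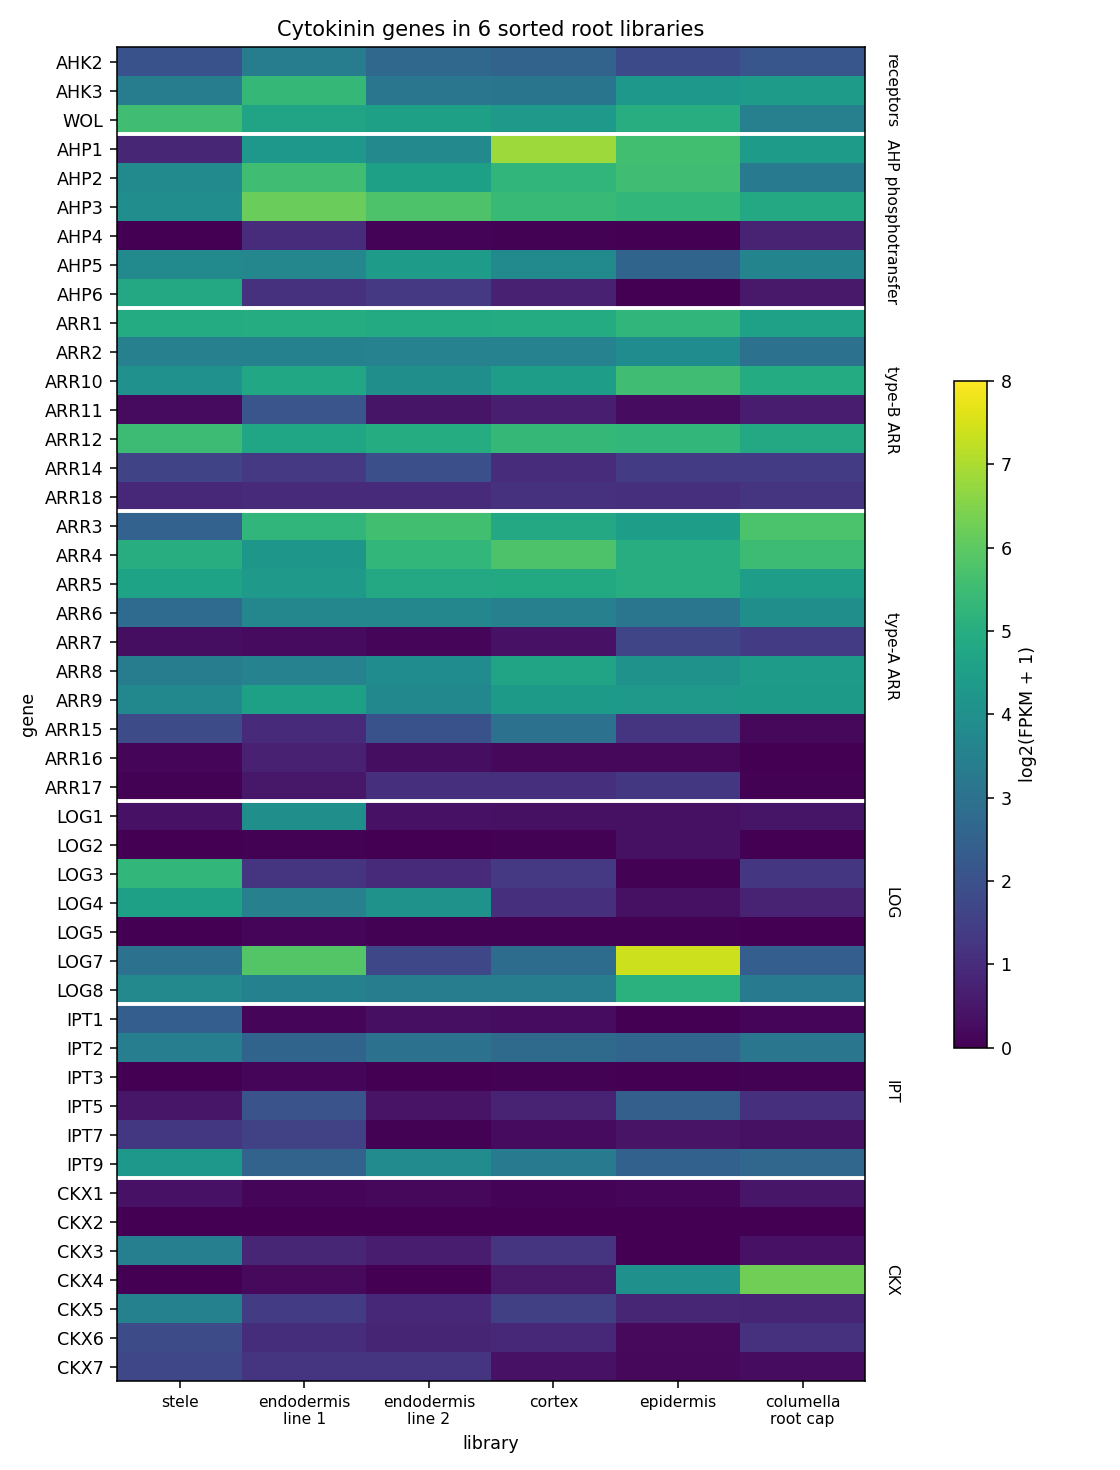
Levels of the 46 cytokinin genes, as log2(FPKM + 1), in the 6 libraries (columns), with genes in rows grouped by family. Among measured genes, type-B ARR rows vary least in the median and type-A rows next. Many LOG, CKX and AHP rows change more from library to library, as with CKX4, LOG7, LOG3 and AHP6.

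In stele, 4 of the 40 measured cytokinin genes were enriched and 2 were depleted, or 10% and 5%. Over all measured genes 1.55% were enriched and 2.2% depleted in this library. The enriched genes were AHP6, LOG3, CKX3 and CKX5, and the depleted ones AHP1 and ARR3. Epidermis had 2 enriched genes, LOG7 and LOG8 (5%, against 4.46% of all genes), and 1 depleted, AHP5 (2.5%, against 0.966% of all genes). The enriched share in epidermis was thus close to that of all genes. Cortex had 1 enriched gene, AHP1 (0.824% of all genes), and columella root cap 1, CKX4 (5.44% of all genes). At 1 of 40, or 2.5%, the share of cytokinin genes enriched in columella root cap was below that of all genes. Endodermis had 0 enriched and 0 depleted cytokinin genes, against 0.681% and 0.0% of all genes. Cortex and columella root cap had 0 depleted ones, against 0.0458% and 1.11% of all genes. In sorted cells taken as a whole, fewer cells of a type and less RNA per cell cannot be told apart. The dividing-cell markers summed to 255 FPKM in stele and between 31.2 and 192 FPKM in the other libraries, and their part in the stele levels was not tested.

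**Figure D2:**
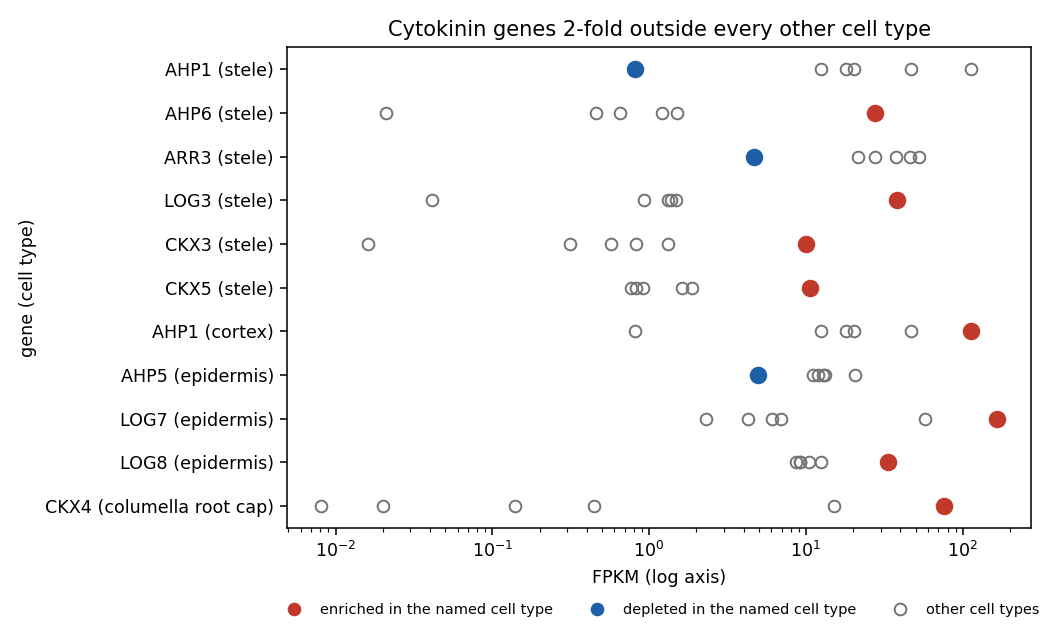
FPKM on a log axis for each cytokinin gene enriched (red) or depleted (blue) in the cell type named on the left, with open circles for each library of the other cell types. AHP6, LOG3, CKX3 and CKX5 stand at 10.01 to 38.2 FPKM in stele and at most 1.87 FPKM elsewhere, and AHP1 stands at 0.808 FPKM in stele and at least 12.5 FPKM elsewhere.

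The receptors were present in every library. WOL (AT2G01830) was at 46.03 FPKM in stele, against 24.6 and 22.5 FPKM in endodermis lines 1 and 2, 18.7 FPKM in cortex, 30.7 FPKM in epidermis and 10.3 FPKM in columella root cap. Its promoter drives the reporter with which stele was sorted, so its place in stele is no finding. The neighbours in that order, stele and epidermis, differed by 1.498-fold, and WOL was lowest in columella root cap. AHK3 (AT1G27320), a receptor best known from leaves and shoots, was at 39.5 FPKM in endodermis line 1, against 7.73 FPKM in endodermis line 2, 9.28 FPKM in stele, 7.59 FPKM in cortex, 18.2 FPKM in epidermis and 20.6 FPKM in columella root cap. The endodermis lines were 5.11-fold apart and spanned the level of every other library but cortex. AHK2 was lower, between 2.45 FPKM in epidermis and 9.53 FPKM in endodermis line 1. WOL had the highest receptor level in stele, endodermis line 2, cortex and epidermis, at 78.9%, 63.2%, 60.1% and 59.8% of the receptor sum, and AHK3 in endodermis line 1 and columella root cap, at 53.6% and 60.1%.

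The AHP genes included members with opposite places in stele. AHP6 (AT1G80100), which encodes a pseudo-phosphotransfer protein that inhibits cytokinin signalling and sets the protoxylem in the root, was at 27.7 FPKM in stele, against 1.20 and 1.496 FPKM in endodermis lines 1 and 2, 0.656 FPKM in cortex, 0.0210 FPKM in epidermis and 0.461 FPKM in columella root cap. Stele stood 18.5-fold above the next library, and the endodermis lines, at 1.35 ± 0.208 FPKM (SD, n = 2), were 1.24-fold apart. AHP1 (AT3G21510), an active phosphotransfer protein, had its lowest level in stele, at 0.808 FPKM in stele, against 18.03 and 12.5 FPKM in endodermis lines 1 and 2, 113 FPKM in cortex, 46.6 FPKM in epidermis and 20.3 FPKM in columella root cap. Its level in stele was 15.5-fold below the lowest other library, and its level in cortex was 2.44-fold above epidermis, the next highest. Scaling by size factors ended the cortex call, with a log2 margin of 0.77. AHP6 made up 40.3% of the summed AHP level in stele and at most 1.37% in any other library, while AHP1 made up 1.18% in stele and between 11.4% and 54.8% elsewhere. The xylem markers summed to 265 FPKM in stele, 133 and 17.0 FPKM in endodermis lines 1 and 2, 69.3 FPKM in cortex, 13.7 FPKM in epidermis and 815 FPKM in columella root cap, and their part in the AHP6 levels was not tested.

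The coding sequences show where the inhibitor differs from the carriers. Below, 45 bases around the codon of the phosphorylated histidine are given for all 6 genes, in capitals for that codon, from the RefSeq annotation of TAIR10.1 with introns removed and read 5′ to 3′ on the coding strand. They are shown because AHP6, enriched in stele, and AHP1, depleted there, differ at this codon.
AHP1: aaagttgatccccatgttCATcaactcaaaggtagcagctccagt
AHP2: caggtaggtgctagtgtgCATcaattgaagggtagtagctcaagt
AHP3: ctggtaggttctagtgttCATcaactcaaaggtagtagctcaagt
AHP4: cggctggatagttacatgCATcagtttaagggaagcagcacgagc
AHP5: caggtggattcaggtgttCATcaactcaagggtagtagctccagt
AHP6: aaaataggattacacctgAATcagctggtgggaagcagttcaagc
The codon is CAT, for histidine, in AHP1 to AHP5 and AAT, for asparagine, in AHP6. The AHP6 stretch is chr1:30134158-30134202 on the plus strand, and the other stretches span an intron.

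The remaining AHP genes were less restricted. AHP2 (AT3G29350) was at 13.03 FPKM in stele, against 45.7 and 22.1 FPKM in endodermis lines 1 and 2, 37.7 FPKM in cortex, 45.6 FPKM in epidermis and 8.64 FPKM in columella root cap. AHP3 (AT5G39340) was at 14.0 FPKM in stele, against 71.7 and 53.0 FPKM in endodermis lines 1 and 2, 42.2 FPKM in cortex, 38.0 FPKM in epidermis and 27.1 FPKM in columella root cap. Stele was the lowest library for AHP3 and the lowest but for columella root cap for AHP2, and neither passed the rule, as AHP3 stood 1.93-fold below the next library. AHP5 (AT1G03430) was depleted in epidermis, at 4.93 FPKM in epidermis, against 13.2 FPKM in stele, 12.0 and 20.4 FPKM in endodermis lines 1 and 2, 12.8 FPKM in cortex and 11.2 FPKM in columella root cap. Its call was lost when FPKM were divided by size factors or quantile normalized, with log2 margins of 0.69 and 0.75. AHP4 reached 1.04 FPKM in endodermis line 1 and 0.741 FPKM in columella root cap and was listed at 0 in stele. The summed AHP level was 68.7 FPKM in stele, 150 and 110 FPKM in endodermis lines 1 and 2, 207 FPKM in cortex, 135 FPKM in epidermis and 68.5 FPKM in columella root cap.

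**Figure D3:**
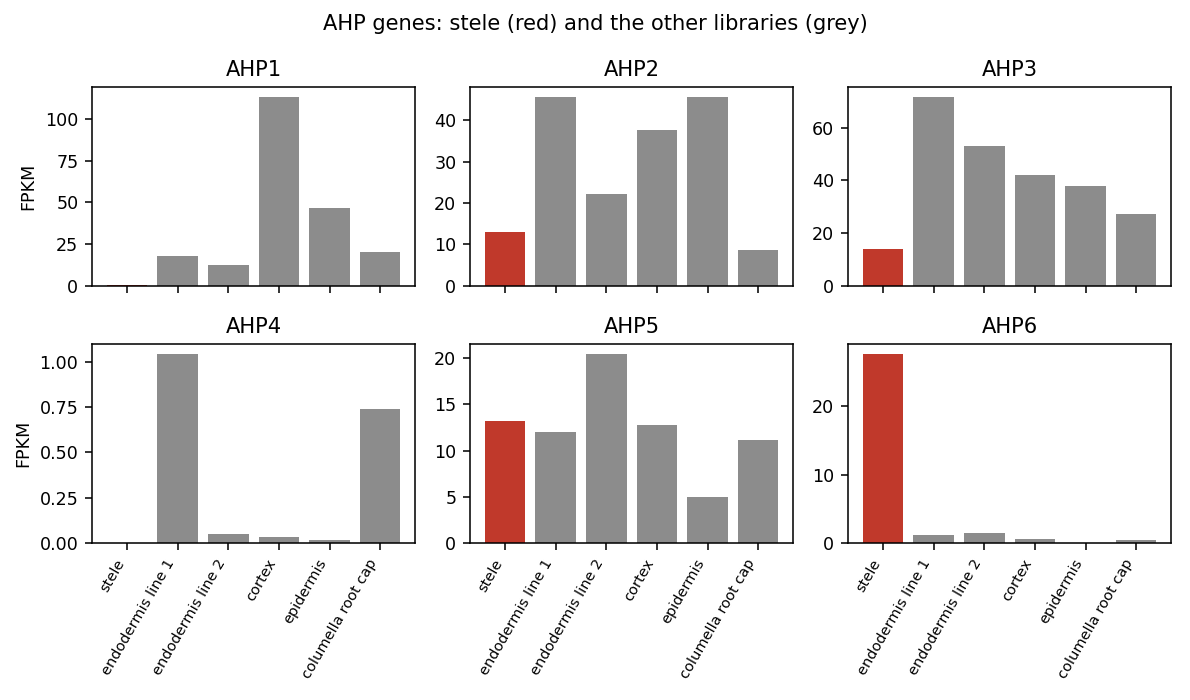
FPKM of the 6 AHP genes in each library (bars, 1 library each, with a separate linear axis for each gene), stele in red and the others in grey. AHP6 is seen almost wholly in stele at 27.7 FPKM, where AHP1 is at 0.808 FPKM against 113 FPKM in cortex.

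Type-B ARR genes were the most even family. Between the highest and the lowest library, log2(FPKM + 1) of the 7 genes differed by 0.90 in the median, against 1.71 over all measured genes, and 0 of 7 reached a range of 2, against 38.7% of all genes. The added 1 narrows ranges at low levels, as for ARR11, whose range was 19.0-fold in FPKM but 1.88 on this scale. ARR1 (AT3G16857), a main activator of cytokinin response in the root meristem, was at 29.1 FPKM in stele, against 30.3 and 28.4 FPKM in endodermis lines 1 and 2, 29.6 FPKM in cortex, 37.7 FPKM in epidermis and 22.7 FPKM in columella root cap. ARR12 (AT2G25180), which acts beside it in roots, was at 43.3 FPKM in stele, against 25.4 and 30.3 FPKM in endodermis lines 1 and 2, 39.6 FPKM in cortex, 38.1 FPKM in epidermis and 27.7 FPKM in columella root cap. ARR10 varied more, at 46.1 FPKM in epidermis, against 15.4 FPKM in stele, 26.6 and 14.9 FPKM in endodermis lines 1 and 2, 21.6 FPKM in cortex and 29.6 FPKM in columella root cap. ARR2 lay between 6.98 and 13.9 FPKM. The endodermis lines were close for ARR1, ARR2 and ARR12 and 1.78-fold apart for ARR10. ARR14 and ARR18 did not exceed 2.83 and 1.36 FPKM, and ARR11 exceeded 1 FPKM only in endodermis line 1, at 3.32 FPKM, against 0.375 FPKM in line 2. Summed over the 7 genes the level lay between 88.3 FPKM in endodermis line 2 and 139 FPKM in epidermis.

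Type-A ARR genes, the early response genes of the pathway, were found in all layers. Of 9 measured members 8 were lower in stele than the other 4 cell types were on average, as were 9435 of all 19671 measured genes. Among the 8, ARR5 differed by only -0.073 in log2, and ARR7 and ARR17 were at 0.222 and 0.0322 FPKM in stele. The family had a median log2 difference of -0.63, against 0.058 over all measured genes. That median stayed between -0.82 and -0.62 with size factors, TPM and quantile normalization, of which size factors moved the median of all genes to -0.20. ARR3 was the 1 that passed the rule, at 4.66 FPKM in stele, against 37.6 and 46.3 FPKM in endodermis lines 1 and 2, 27.7 FPKM in cortex, 21.6 FPKM in epidermis and 52.4 FPKM in columella root cap. Stele was 4.64-fold below epidermis, the next lowest library, and the endodermis lines were 1.23-fold apart. ARR4 (AT1G10470), the closest relative of ARR3, was not low there, at 30.7 FPKM in stele, against 17.9 and 38.3 FPKM in endodermis lines 1 and 2, 53.6 FPKM in cortex, 31.0 FPKM in epidermis and 43.8 FPKM in columella root cap. ARR5, much used as a reporter of cytokinin response, had the narrowest range of the family, at 24.04 FPKM in stele, against 19.2 and 27.3 FPKM in endodermis lines 1 and 2, 28.3 FPKM in cortex, 30.6 FPKM in epidermis and 20.7 FPKM in columella root cap. Its highest and lowest values, in epidermis and endodermis line 1, were 1.59-fold apart, and the endodermis lines alone were 1.42-fold apart. ARR6, ARR8 and ARR9 lay between 5.96 and 14.7, 9.18 and 24.7, and 12.2 and 22.3 FPKM.

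The type-A pair ARR7 and ARR15, which act in the early root stem cell niche, were low and differed in place. ARR15 (AT1G74890) was at 7.08 FPKM in cortex, against 2.60 FPKM in stele, 0.917 and 3.07 FPKM in endodermis lines 1 and 2, 1.37 FPKM in epidermis and 0.138 FPKM in columella root cap. It stood 2.30-fold above the next library in FPKM but 0.99 on the log2(FPKM + 1) scale, just short of the rule, and was called in cortex with a pseudocount of 0.1, a 1.5-fold margin, TPM, quantile normalization, size factors or without endodermis line 2. ARR7 (AT1G19050) was at 2.19 FPKM in epidermis, against 0.222 FPKM in stele, 0.180 and 0.0985 FPKM in endodermis lines 1 and 2, 0.307 FPKM in cortex and 1.67 FPKM in columella root cap. ARR17 lay between 0.0322 FPKM in stele and 1.43 FPKM in epidermis, and ARR16 did not reach 1 FPKM. The summed type-A level was 89.8 FPKM in stele, 122 and 155 FPKM in endodermis lines 1 and 2, 173 FPKM in cortex, 131 FPKM in epidermis and 173 FPKM in columella root cap, so that stele was lowest and the endodermis lines spanned epidermis.

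AGATT, the core bound by type-B ARR proteins, was counted in the 250 bases upstream of each annotated gene start, on both strands. It was found for 7 of 10 type-A genes, or 70.0%, against 63.7% of 27437 protein-coding genes. The longer AGATCTT, which does not hold AGATT, occurred for 1 of the 10, ARR7, against 3.48%. These shares are close for AGATT, and a match in such a window is a description and not a site.

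IPT genes, which begin the synthesis, were low throughout except for the tRNA-modifying members. IPT9 (AT5G20040), which modifies tRNA and so feeds cis-zeatin, was at 18.3 FPKM in stele, against 4.83 and 13.7 FPKM in endodermis lines 1 and 2, 8.55 FPKM in cortex, 4.55 FPKM in epidermis and 5.29 FPKM in columella root cap. IPT2, the other tRNA type, lay between 5.03 FPKM in endodermis line 1 and 9.69 FPKM in stele. Stele was the highest library for both, 1.34-fold and 1.24-fold above the next, while the endodermis lines differed by 2.83-fold for IPT9. The gap above the next library was thus smaller for IPT9 than the difference between the lines. Among the ATP/ADP-type genes, IPT1 (AT1G68460) was at 4.21 FPKM in stele, against 0.0734 and 0.257 FPKM in endodermis lines 1 and 2, 0.202 FPKM in cortex, a listed 0 in epidermis and 0.0822 FPKM in columella root cap. Stele stood 16.3-fold above endodermis line 2, but below the 5 FPKM of the rule, and IPT1 was enriched in stele with a minimum of 2 FPKM or with TPM. IPT5 (AT5G19040) was at 4.35 FPKM in epidermis, against 0.391 FPKM in stele, 3.15 and 0.340 FPKM in endodermis lines 1 and 2, 0.732 FPKM in cortex and 1.16 FPKM in columella root cap. IPT7 reached 2.004 FPKM in endodermis line 1 and 1.48 FPKM in stele, and was at 0.0381 FPKM in endodermis line 2. IPT3, a nitrate-responsive gene of the phloem, did not exceed 0.0775 FPKM.

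LOG genes, which activate the hormone, had the widest differences between libraries. Their median range was 4.17 in log2(FPKM + 1) over 5 measured genes, against 1.71 over all measured genes. For LOG1 and LOG7 the endodermis lines alone differed by 3.58 and 4.14 on this scale. LOG3 (AT2G37210) was at 38.2 FPKM in stele, against 1.32 and 0.930 FPKM in endodermis lines 1 and 2, 1.49 FPKM in cortex, 0.0410 FPKM in epidermis and 1.38 FPKM in columella root cap. Stele exceeded cortex, the next library, 25.6-fold. LOG4 (AT3G53450), which with LOG3 is activated by the TMO5 and LHW factors of vascular division, was at 22.3 FPKM in stele, against 10.2 and 16.0 FPKM in endodermis lines 1 and 2, 1.12 FPKM in cortex, 0.296 FPKM in epidermis and 0.735 FPKM in columella root cap. It was shared between stele and endodermis, where line 2 lay 1.39-fold below stele, and at most 1.12 FPKM elsewhere. LOG7 (AT5G06300), known with LOG4 from the shoot meristem, was at 166 FPKM in epidermis, against 6.94 FPKM in stele, 57.1 and 2.30 FPKM in endodermis lines 1 and 2, 6.07 FPKM in cortex and 4.24 FPKM in columella root cap. Epidermis was 2.91-fold above endodermis line 1, yet that line stood 24.8-fold above line 2. LOG8 (AT5G11950) was at 33.3 FPKM in epidermis, against 12.5 FPKM in stele, 10.47 and 9.20 FPKM in endodermis lines 1 and 2, 9.18 FPKM in cortex and 8.62 FPKM in columella root cap. Epidermis was 2.67-fold above stele, the next library. LOG1 was seen in a single library, at 14.8 FPKM in endodermis line 1, against 0.321 FPKM in endodermis line 2, 0.302 FPKM in stele, 0.277 FPKM in cortex, 0.282 FPKM in epidermis and 0.355 FPKM in columella root cap. Its endodermis lines were 46.3-fold apart, with line 2 at the level of the other cell types.

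The upstream sequences of LOG3 and LOG4 are given next because both genes were highest in stele. Each is the 250 bases before the annotated gene start, on the strand of the gene, from the RefSeq annotation of TAIR10.1. The LOG3 window is chr2:15627033-15627282 and the LOG4 window chr3:19815667-19815916, both on the minus strand. Capitals mark the longest runs found in both windows, of 10 bases.
LOG3: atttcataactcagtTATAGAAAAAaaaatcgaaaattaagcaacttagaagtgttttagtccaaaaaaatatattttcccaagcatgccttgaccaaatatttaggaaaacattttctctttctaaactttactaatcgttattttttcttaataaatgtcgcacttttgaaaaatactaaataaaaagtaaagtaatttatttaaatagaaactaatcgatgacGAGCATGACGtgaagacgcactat
LOG4: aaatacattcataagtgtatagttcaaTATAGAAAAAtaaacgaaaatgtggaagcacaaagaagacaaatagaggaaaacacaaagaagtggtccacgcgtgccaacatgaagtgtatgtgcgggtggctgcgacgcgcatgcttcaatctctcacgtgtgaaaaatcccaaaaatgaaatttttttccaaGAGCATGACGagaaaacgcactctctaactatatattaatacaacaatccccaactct
The run GAGCATGACG lies 15 to 24 bases before the start of LOG3 and 49 to 58 bases before that of LOG4. On either strand it occurs in 4 of the 27437 windows, or 0.0146%, the other two being those of APK2A (AT1G14370) and SYN1 (AT5G05490). The A-rich TATAGAAAAA occurs in 206 windows, or 0.751%. The E-box CANNTG, the general core of bHLH factors, is found once in the LOG4 window and not in that of LOG3, and in 55.3% of all windows. The runs were picked by comparing this pair and were put to no test.

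CKX genes divided between stele and the root tip. CKX3 (AT5G56970) was at 10.01 FPKM in stele, against 0.826 and 0.569 FPKM in endodermis lines 1 and 2, 1.31 FPKM in cortex, 0.0162 FPKM in epidermis and 0.312 FPKM in columella root cap. CKX5 (AT1G75450) was at 10.6 FPKM in stele, against 1.63 and 0.911 FPKM in endodermis lines 1 and 2, 1.87 FPKM in cortex, 0.828 FPKM in epidermis and 0.765 FPKM in columella root cap. Both were enriched in stele, 7.62-fold and 5.64-fold above cortex, and the endodermis lines differed by 1.45-fold and 1.79-fold. CKX6 and CKX7, the cytosolic member, were also highest in stele, at 2.64 and 2.29 FPKM against at most 1.20 and 1.36 FPKM elsewhere, below the level of the rule. CKX4 (AT4G29740) stood at 75.4 FPKM in columella root cap, against 0.02002 FPKM in stele, 0.139 and 0.00810 FPKM in endodermis lines 1 and 2, 0.447 FPKM in cortex and 15.2 FPKM in epidermis. Columella root cap was 4.97-fold above epidermis, and the other libraries were at 0.447 FPKM or less. The root cap markers had the same order, summing to 310 FPKM in columella root cap, 125 FPKM in epidermis and at most 7.91 FPKM in the other libraries, and their part in the CKX4 level of epidermis was not tested. CKX1 and CKX2 did not exceed 0.386 and 0.00921 FPKM.

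Summed over each family, the synthesis and breakdown genes peaked in different libraries. The LOG sum was 200 FPKM in epidermis, 82.9% of it LOG7, then 94.1 FPKM in endodermis line 1 and 80.2 FPKM in stele, 47.6% of it LOG3, and between 15.3 and 28.8 FPKM in the other libraries. The CKX sum was 78.3 FPKM in columella root cap, 96.3% of it CKX4, 25.8 FPKM in stele, 16.4 FPKM in epidermis and between 3.74 and 5.14 FPKM in the others. The IPT sum was 34.1 FPKM in stele and between 14.3 and 21.2 FPKM elsewhere. Columella root cap thus held the highest CKX sum and the lowest LOG sum of the 6 libraries. Stele had the highest IPT sum and, after columella root cap, the highest CKX sum.

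**Figure D4:**
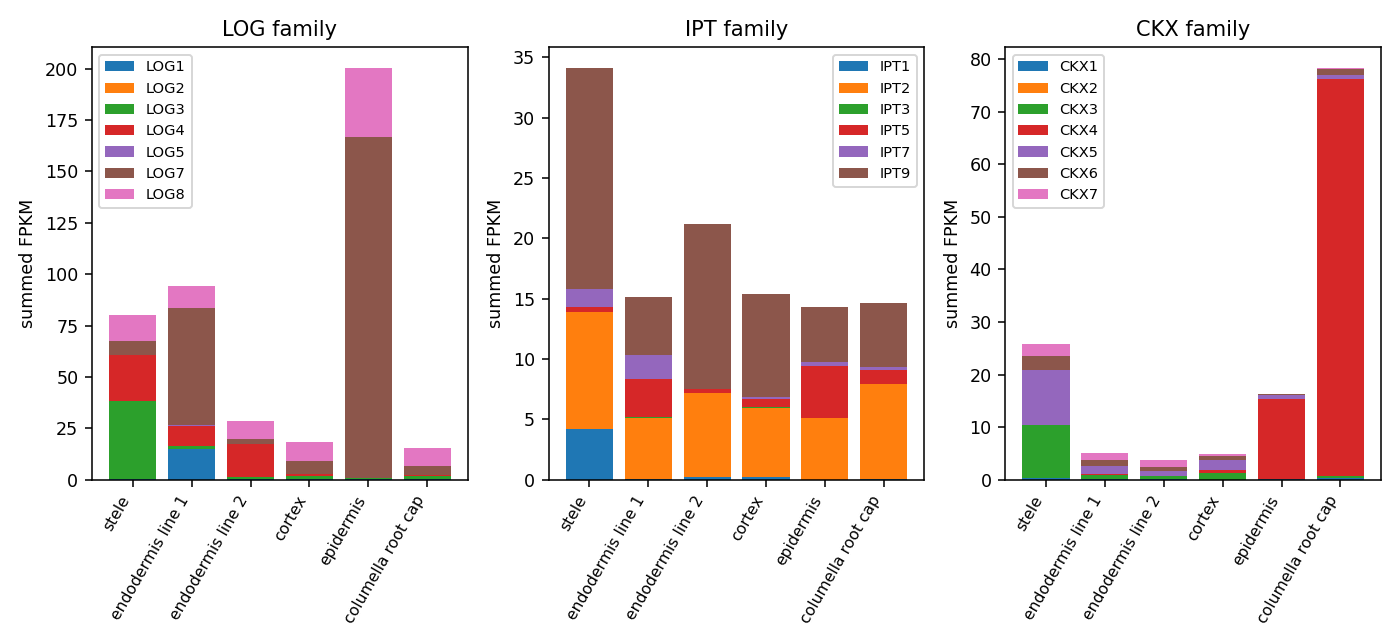
Summed FPKM of the LOG, IPT and CKX families in each library (stacked bars, 1 library each, a colour per gene). LOG7 fills most of the epidermis LOG bar (166 of 200 FPKM), CKX4 most of the columella root cap CKX bar (75.4 of 78.3 FPKM), and LOG3, LOG4, CKX3 and CKX5 stand out in stele.

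Ranges over the libraries were set side by side by role. For the 25 measured genes of the receptors, AHP and both ARR groups the median range of log2(FPKM + 1) was 1.54, and for the 15 measured LOG, IPT and CKX genes it was 2.38, against 1.71 over all measured genes. A range of 2 or more was reached by 8 of 25, 8 of 15 and 38.7% of all genes. The metabolic genes were also lower, with a median mean level of 1.51 against 3.94 for the signalling genes on the same scale, and 5 of their 20 members were below the minimum against 1 of 26 signalling genes. As a gene with high expression in a single library meets the minimum through it, these ranges describe the genes that met it and are not a test.

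Each cell type was also set against the average of the 4 others with limma, fitted over all 19671 measured genes. Its single residual degree of freedom comes from the endodermis pair, and the lone libraries were assumed to vary as much. The prior degrees of freedom, the weight given to the spread shared by genes of like level, were infinite. That shared spread thus wholly replaced the spread of each gene in the adjusted p-values below. With a Benjamini-Hochberg adjusted p under 0.05 and a minimum of 1 on the log2 scale, 6 cytokinin genes were called in stele, 5 higher and 1 lower, against 0.961% and 2.01% of all genes. AHP6 had a log2 difference of 4.21 ± 0.71 (SE), adjusted p = 3.28e-06 in limma, and lay above all 5 other libraries. LOG3 had 4.36 ± 0.81 (adjusted p = 2.63e-05 in limma), CKX3 2.87 ± 0.58 (adjusted p = 0.000178 in limma) and CKX5 2.44 ± 0.74 (adjusted p = 0.0371 in limma). The CKX5 call was lost with a pseudocount of 0.1. IPT1 had 2.23 ± 0.40 (adjusted p = 1.13e-05 in limma). AHP1 had -4.35 ± 0.91 (adjusted p = 0.000322 in limma) and lay below all 5 other libraries. ARR3 and LOG4, with -2.62 and 3.03, were not called (adjusted p = 0.084 and 0.0792 in limma).

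Elsewhere limma called fewer members. LOG7 was higher in epidermis by 4.39 ± 0.96 (adjusted p = 0.000183 in limma), where 6.19% of all genes were called higher and 0.473% lower. CKX4 was higher in columella root cap by 5.09 ± 0.86 (adjusted p = 7.71e-07 in limma), where 4.71% of all genes were called higher and 0.336% lower, and lower in endodermis by 2.61 on the log2 scale (adjusted p = 0.00923 in limma), against 0.249%. The endodermis lines, at 0.139 and 0.00810 FPKM, stood near stele and cortex, at 0.02002 and 0.447 FPKM, so that this call rests on columella root cap and epidermis and is not particular to endodermis. LOG1 was called higher in endodermis, against 1.91% of all genes, although its lines stood at 14.8 and 0.321 FPKM, because in this fit the spread of a gene is replaced by that shared across genes. In cortex limma called 0 cytokinin genes, with 3 at an unadjusted p under 0.05, against 0.508% of all genes called higher and 0.00508% lower, and AHP1 had an adjusted p of 0.0991 there. None of these calls of cytokinin genes was kept when FPKM were divided by size factors, where limma called 0 of all genes in each comparison and 1806 had an unadjusted p under 0.05 in stele.

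The endodermis lines were compared gene by gene, as the only pair from 1 cell type. At 2-fold on the log2(FPKM + 1) scale with 5 FPKM in the higher line, 4 of 40 cytokinin genes were higher in line 1 and 2 lower, against 13.9% and 16.1% of all genes. LOG7, LOG1, AHK3 and AHP2 were higher in line 1, by 24.8-fold, 46.3-fold, 5.11-fold and 2.06-fold in FPKM. IPT9 and ARR4 were lower, at 4.83 FPKM in line 1 against 13.7 FPKM in line 2 and at 17.9 FPKM against 38.3 FPKM. Line 1 also had more of the Casparian strip gene CASP1, at 2045 FPKM against 85.2 FPKM in line 2, and less of the cytokinesis gene KNOLLE, at 16.8 FPKM against 62.2 FPKM. The 5 dividing-cell markers summed to 56.6 FPKM in line 1 and 192 FPKM in line 2, and 5 stress-response genes to 939 and 208 FPKM. Their part in the differences of cytokinin genes was not tested.

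**Figure D5:**
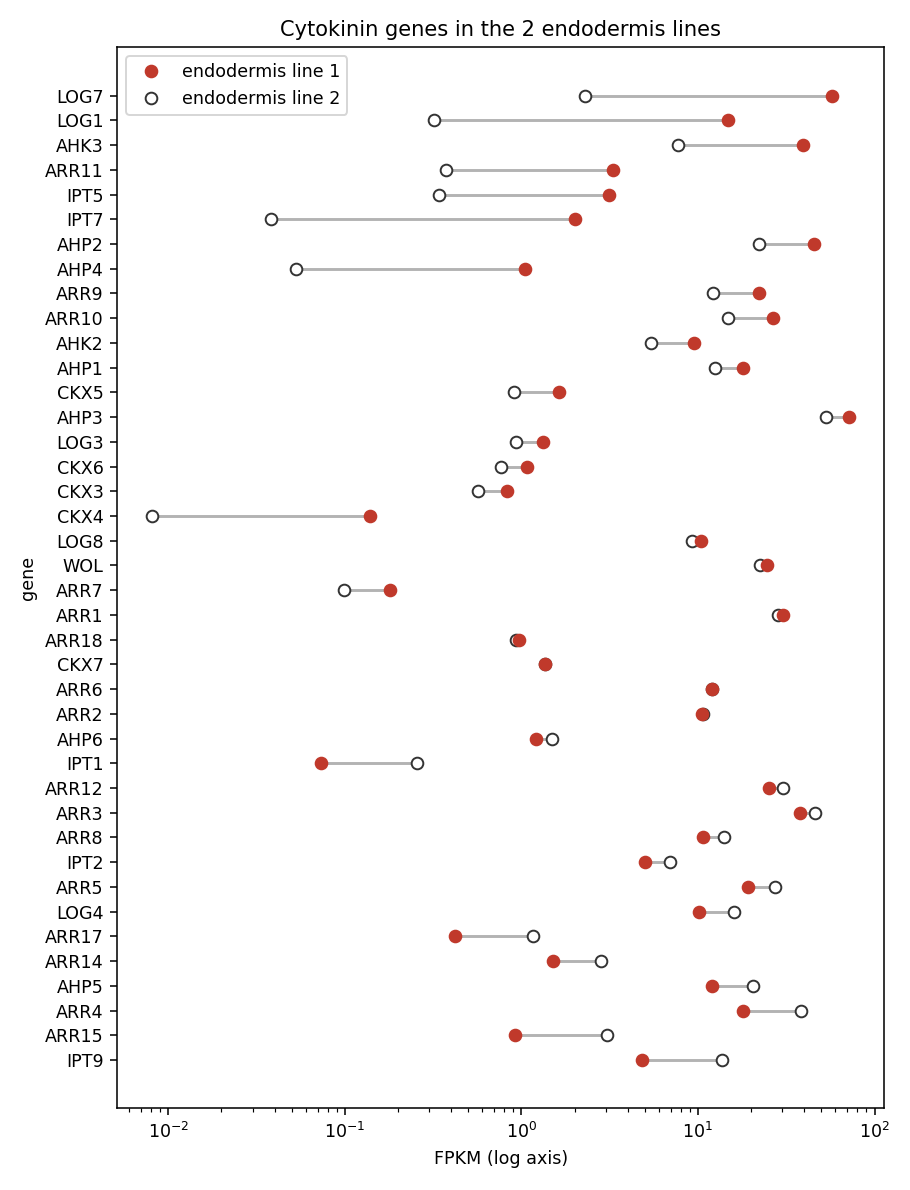
FPKM on a log axis of the 40 measured cytokinin genes in endodermis line 1 (red) and line 2 (open), ordered by the difference of log2(FPKM + 1). LOG7 and LOG1 lie far higher in line 1, while WOL, ARR1, ARR2, ARR6, ARR18 and CKX7 nearly coincide.

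Stress-response genes also differed between the cell types. The 5 of them summed to 69.3 FPKM in stele, 939 and 208 FPKM in endodermis lines 1 and 2, 230 FPKM in cortex, 962 FPKM in epidermis and 1239 FPKM in columella root cap. LOG7, AHK3 and IPT5 were higher in epidermis and endodermis line 1 than in stele, cortex and endodermis line 2, as these genes were. AHP2, ARR10 and, by a small margin, ARR1 had the same order. Endodermis line 1 differed at least 2-fold from epidermis at 29.6% of genes compared, against 43.0% from line 2. How many of all genes had this order was not counted. In columella root cap LOG7 was at 4.24 FPKM, AHK3 at 20.6 FPKM and IPT5 at 1.16 FPKM. The part of the stress response in these levels was not tested.

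Of 43 further genes of cytokinin sensing, synthesis, transport, modification and response, with the vascular factors TMO5, T5L1 and LHW, 27 were measured. In stele 4 of the 27, or 14.8%, were enriched and 1, or 3.7%, was depleted, against 1.55% and 2.2% of all genes. As TMO5 and T5L1 were listed as vascular factors, the share enriched in stele is partly set by the choice of genes. The enriched ones were AZG2, a purine transporter that also carries cytokinin, at 46.8 FPKM in stele against at most 7.31 FPKM elsewhere, the response factor CRF3 at 56.4 against at most 27.6 FPKM, and the bHLH genes TMO5 and T5L1 at 141 and 126 against at most 22.5 and 13.4 FPKM. TMO5 and T5L1 were thus highest in the library in which LOG3 and LOG4 were highest. In endodermis lines 1 and 2 TMO5 was at 22.5 and 2.53 FPKM and T5L1 at 13.4 and 2.50 FPKM. LOG3, at 1.32 and 0.930 FPKM, had the same order of lines, but only by 1.42-fold and close to the measuring minimum of 1 FPKM. LOG4, at 10.2 and 16.0 FPKM, and LHW, at 11.3 and 34.0 FPKM, had the opposite order. PUP14, a cytokinin importer of the plasma membrane, was depleted at 6.37 FPKM in stele against at least 13.9 FPKM elsewhere. ABCG14, which exports cytokinin for transport to the shoot, was enriched in endodermis, at 27.9 and 26.2 FPKM in lines 1 and 2 against at most 8.43 FPKM elsewhere, as 1 of 27 genes (3.7%, against 0.681% of all genes). With LHW, the partner of TMO5, epidermis had 1 depleted gene, at 2.59 FPKM against at least 7.44 FPKM elsewhere (3.7%, against 0.966% of all genes).

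Columella root cap had 3 enriched genes of this list and 1 depleted, or 11.1% and 3.7%, against 5.44% and 1.11% of all genes. The cytokinin N-glucosyltransferase gene UGT76C2 was at 32.0 FPKM in columella root cap and 6.83 FPKM or less elsewhere, and UGT85A1, whose product glucosylates zeatin at the oxygen of its side chain, at 107 against at most 44.7 FPKM. CRF6 was at 14.2 against at most 5.31 FPKM, and CRF3 was depleted at 4.98 against at least 18.5 FPKM. Cortex had 0 enriched and 0 depleted genes of this list. Between the endodermis lines, 9 of the 27, or 33.3%, were 2-fold higher in line 1, against 13.9% of all genes, among them all 4 KMD genes, whose F-box proteins target type-B ARR proteins for degradation. In the other direction 3, or 11.1%, were lower in line 1, against 16.1% of all genes.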

How the data were processed

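The authors deposited 1 table of FPKM values per library, and the tools named are Cufflinks 2.0.2, TopHat 1.3.1 and Bowtie 0.12.7, with the build TAIR10, per the submitters' processing notes. Polyadenylated RNA was sequenced, per the labels' protocols. FPKM hold no read counts, so a count test could not be used. Here the values were taken as log2(FPKM + 1), with a measuring minimum of 1 FPKM in at least 1 library, in Python 3.11.15. The rule of size used a log2 margin of 1 and 5 FPKM. limma 3.58.1 in R 4.3.3 was fitted with trended empirical Bayes variances and Benjamini-Hochberg adjustment over all measured genes. The rule and limma were also run on simulated data in which every library varied as much as the endodermis pair. That run could not check the assumption that the lone libraries vary so. Nothing says whether the endodermis libraries came from separate plantings, so limma's p-values measure the spread between these 2 samples. They came from different lines and were at least 2-fold apart at 43.0% of genes compared, so this spread is not that of repeats of the same sample. Line, planting and technical parts of it cannot be told apart. The members and lists were chosen with earlier results of these data known. All members could be named, and of the other lists those enriched or depleted. Alternatives were another pseudocount, margin, minimum, scaling, filter or variance trend, and libraries left out. The tables give no coordinates. Loci were matched to the RefSeq annotation of TAIR10.1 by identifier, found for all 46 genes, and sequences and their coordinates are of that assembly alone.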

Additional observations from a re-analysis of the deposited data

How the results depend on the processing

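Of the counts of cytokinin genes, 94 were within 1.5 times the reported value and 22 were not, and among margins of called genes 103 stayed past the rule and 3 did not. Most of these margins could not fail. A looser margin, a lower minimum, a smaller pseudocount or a left-out library cannot end a call by the rule of size. The 3 that did not stay were with size factors or quantile normalization. AHP6, LOG3, CKX3 and CKX5 were enriched, and AHP1 and ARR3 depleted, in stele under every alternative to the rule of size that was run. Only size factors, TPM and quantile normalization among these alternatives could have ended such a call. The stele counts were 4 to 6 enriched and 2 to 3 depleted. LOG4 and IPT9 entered the enriched genes without endodermis line 2, and IPT1 with a minimum of 2 FPKM or with TPM. AHP3 entered the depleted ones with a 1.5-fold margin, size factors, TPM or without columella root cap. Over all measured genes the enriched share in stele was 1.16% with size factors and up to 6.21% without endodermis line 2, against 1.55% as reported. With a 1.5-fold margin this share was 5.86%, and 4 cytokinin genes were enriched. The depleted share of all genes in stele lay between 2.1% and 3.91%. Size factors moved the median log2 difference of all measured genes in epidermis to -0.027, against -0.39 as deposited, in cortex to -0.12, against -0.0058, and in stele to -0.20, against 0.058. Quantile normalization moved it in columella root cap to -0.17, against -0.048. The count enriched in cortex was 1 as reported and became 2 with a pseudocount of 0.1, a 1.5-fold margin, TPM or quantile normalization, by the entry of ARR15, and 1 to 2 leaving out each endodermis replicate. With size factors it stayed at 1, but AHP1, with a margin of 0.77, was replaced by ARR15. Over all genes the share enriched in cortex lay between 0.702% and 1.83%. The count enriched in endodermis, 0 as reported, was 0 to 1 leaving out each replicate. LOG1 entered without line 2, where 4.08% of all genes were enriched. The 1.5-fold margin added 1 gene depleted in columella root cap, WOL, to a reported 0, against 3.33% of all genes. The count depleted in epidermis, 1 as reported, became 0 with size factors or quantile normalization, where the margin of AHP5 was 0.69 and 0.75. Of all genes 0.437% and 0.635% were depleted in epidermis with these scalings. The limma counts moved most. Of 6 in stele, 2 in endodermis and 1 in epidermis, 0 were left with size factors, without the filter or without the variance trend, and of 1 in columella root cap 0 with size factors or without the filter. A pseudocount of 0.1 gave 1 in endodermis and 4 in epidermis, and in stele 6 again, with CKX4 in place of CKX5. Of all genes that pseudocount called 1.54%, 6.03% and 4.17% in these cell types. Without the variance trend 0.107% of all genes were called in endodermis, 1.74% in epidermis and 0.0% in stele. The prior degrees of freedom of limma were infinite as reported and with a pseudocount of 0.1. They were 3.57 with size factors, 1.95 without the filter and 9.15 without the variance trend. Their part in the lost calls was not tested. No margin of a called gene changed sign. Medians near 0 did: that of all measured genes in stele with size factors, as above, and in columella root cap with TPM, at 0.048 against -0.048 as deposited, and in cortex with quantile normalization, at 0.0060. Among families the sign differed between scalings for type-B ARR genes in every cell type but epidermis, AHP genes in epidermis and IPT genes in endodermis. No paired analysis was possible because endodermis alone had more than 1 library. The value of a single read is unknown in absolute terms, so levels near the measuring minimum carry an unknown counting error.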

Other observations

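The libraries in which cytokinin genes were highest were counted over the 40 measured members. Stele was the highest library for 12 of them (30%, against 28.6% of all measured genes), and epidermis and endodermis line 1 for 9 each (22.5%, against 14.3% and 13.1%). Cortex and columella root cap were highest for 4 each (10%, against 12.6% and 23.2%), and endodermis line 2 for 2 (5%, against 8.24%). Of the 12 peaking in stele, 4 were CKX, 3 IPT and 2 LOG genes, and the type-A ARR genes gave 0. No test was made of these shares.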
